A study of Mus musculus with 16 samples.

Results

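The 10 genes described here belong to the BCL2 family or its close relatives and were chosen by symbol: the survival genes Bcl2, Bcl2l1 and Mcl1, the pore-forming genes Bax and Bak1, the BH3-only genes Bid, Bbc3, Pmaip1 and Bcl2l11, and the mitophagy receptor Bnip3l. Both these genes and the gene lists set beside them below were chosen with earlier results of these data known. All 10 symbols were found among the 56941 genes of the count table, 1 row each, and all 10 were among the 16306 genes with enough counts to be tested. Bulk RNA of primary murine gingival fibroblasts (mGF) was sequenced after 24 h under 4 conditions, with 4 libraries each. The cells were grown from gingiva around the upper second molar of WT C57Bl6 mice aged 3-6 months and were used at passages 2 to 8. BSA (control) cells received the albumin carrier, IL-1β cells the carrier and 1 ng/mL of mouse recombinant IL-1β, palmitate cells 200 μM of the saturated fatty acid palmitate bound to BSA, and palmitate + IL-1β cells both agents. All conditions shared the BSA carrier, and no group carried a genetic change. The labels do not say whether the 4 libraries of a condition came from separate animals or cultures, so the p-values measure only the spread between these libraries, which may be technical.

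BCL2 family proteins decide whether the outer membrane of the mitochondrion is opened, which releases cytochrome c and starts the caspase cascade. BAX and BAK form the pores, BCL2, BCL-xL (from Bcl2l1) and MCL1 hold them in check, and BH3-only proteins such as BID, PUMA (from Bbc3), NOXA (from Pmaip1) and BIM (from Bcl2l11) bind the guards or the pore formers in response to stress. BNIP3L, also called NIX, sits in the same membrane and marks mitochondria for removal by autophagy. Many of these proteins are also controlled after transcription, by cleavage in the case of BID and by rapid turnover in the case of MCL1, and RNA levels do not show that.

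Library depth ran from 21234789 to 92752515 counts on genes, the deepest being palmitate replicate 10, and a count of 3 in 1 library corresponds to 0.0323 to 0.141 CPM, which covers counting error only. CPM are counts divided by the library total and brought to the same total in every library. Levels below are CPM on library sizes scaled by the trimmed mean of M values (TMM). The label of the cells was checked against markers: the summed level of 9 fibroblast markers was 28470 to 33710 CPM, while 6 leukocyte markers summed to at most 2.80 CPM, 4 epithelial markers to at most 0.728 CPM and 2 endothelial markers to at most 1.40 CPM. Of these, Ptprc, Adgre1, Itgam, Cd3e, Krt5, Krt14 and Epcam were at 0 in at least 1 library. The largest part of the fibroblast sum was Col1a1, with a mean of 14190 CPM in BSA (control). Lum, of the same list, was as low as the markers of other cells, with means of 1.82 CPM in BSA (control) and 1.125 CPM with palmitate + IL-1β. The fibroblast markers moved with the conditions as well: with palmitate + IL-1β, Pdgfra was higher by 0.53 on the log2 scale and 6 of the 9 were lower, and the part of this in the results was not tested. In bulk RNA, fewer cells of a kind and less RNA per cell cannot be told apart.

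Bid, whose protein links death receptors to the mitochondrion, rose in every treated condition, and Bcl2l11 fell wherever palmitate was present. Pmaip1 moved in opposite directions, up with IL-1β and down with palmitate. The survival genes Bcl2 and Mcl1 rose with palmitate, by 1.41-fold and 1.22-fold, and Bcl2l1 did not pass the test in any comparison. The pore-forming gene Bak1 rose by 1.19-fold with palmitate, and Bax by 1.24-fold with palmitate + IL-1β. In a test of any difference across the 4 conditions, 9 of the 10 genes passed an adjusted p of 0.05, against 50.8% of all genes tested, and Bcl2l1 had an adjusted p of 0.067 (edgeR's quasi-likelihood F test with Benjamini-Hochberg adjustment over all genes tested, as for every adjusted p below unless stated otherwise).

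**Figure D1:**
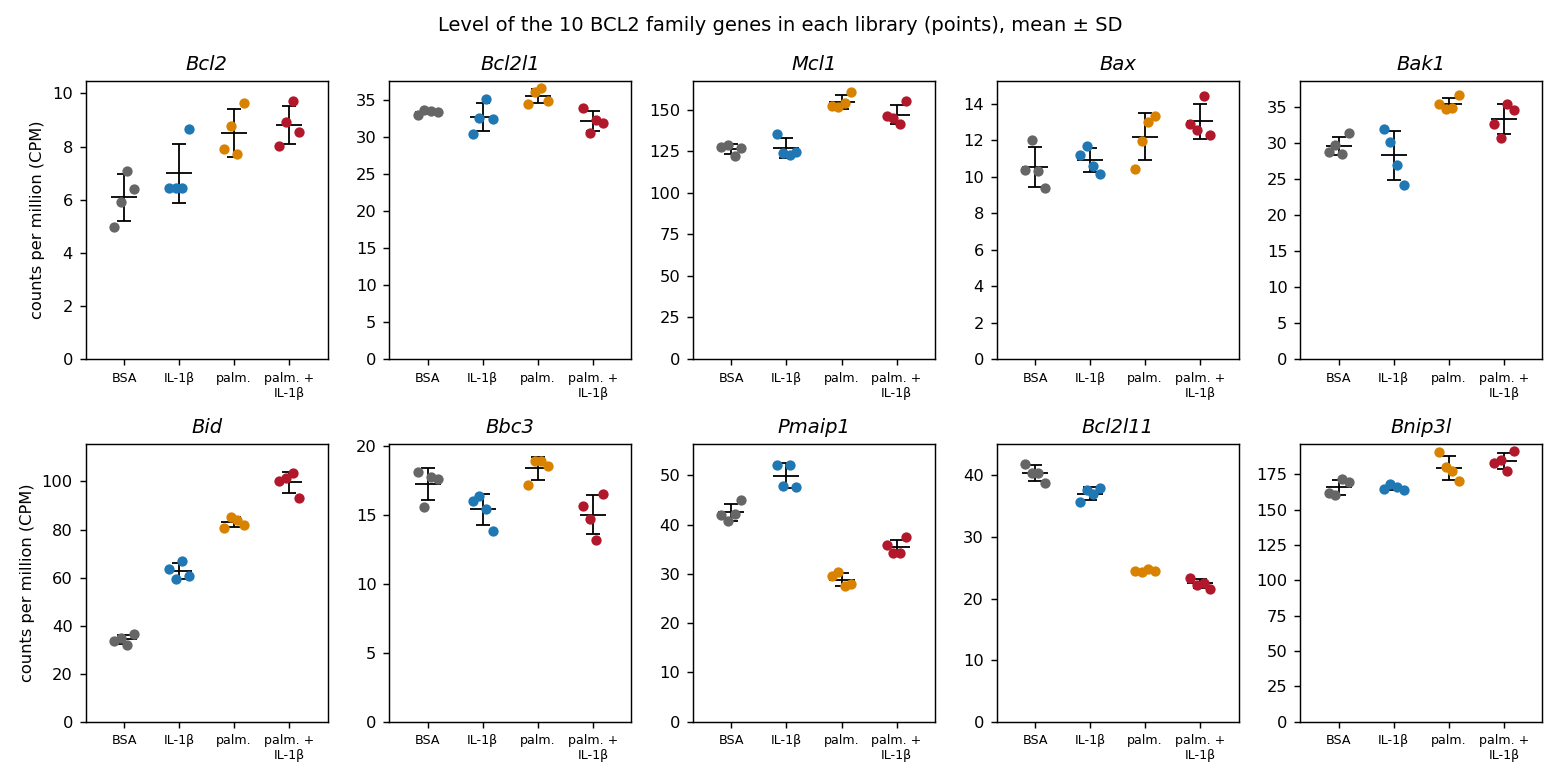
Level of each of the 10 genes in CPM (y axis, from 0) in the 4 conditions (x axis, palm. for palmitate). Points are the 4 libraries of a condition and the black bars the mean ± SD. Bid climbs from 34.3 CPM in BSA (control) to 99.6 CPM in palmitate + IL-1β without overlap between conditions, and Bcl2l11 drops from 40.4 to 22.5 CPM.

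The sequences just before the start sites of 3 members are shown because these genes carry the largest rise and the largest fall of the 10 with palmitate + IL-1β and, for Mcl1, the highest mean level per length of exon. They come from the RefSeq promoter table of build GRCm38.p6, which gives 250 bases before to 50 after each start and held entries for 8 of the 10 genes, the 2 without an entry being Pmaip1 and Bnip3l. Bid at chr6:120916825-120917074 on the minus strand, Bcl2l11 at chr2:128125788-128126037 on the plus strand (the first of 2 listed starts) and Mcl1 at chr3:95658471-95658720 on the plus strand read as follows over the 250 bases before the start, with capitals for a motif match.
Bid: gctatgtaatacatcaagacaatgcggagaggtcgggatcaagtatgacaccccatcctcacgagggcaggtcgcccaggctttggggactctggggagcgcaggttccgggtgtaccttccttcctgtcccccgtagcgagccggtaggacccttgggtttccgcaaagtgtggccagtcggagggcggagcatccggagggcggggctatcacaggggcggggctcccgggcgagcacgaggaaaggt
Bcl2l11: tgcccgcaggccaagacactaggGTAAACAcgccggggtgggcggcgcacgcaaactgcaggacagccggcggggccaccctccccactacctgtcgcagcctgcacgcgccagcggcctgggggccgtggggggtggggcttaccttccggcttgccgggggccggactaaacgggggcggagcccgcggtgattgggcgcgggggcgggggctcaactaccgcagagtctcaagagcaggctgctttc
Mcl1: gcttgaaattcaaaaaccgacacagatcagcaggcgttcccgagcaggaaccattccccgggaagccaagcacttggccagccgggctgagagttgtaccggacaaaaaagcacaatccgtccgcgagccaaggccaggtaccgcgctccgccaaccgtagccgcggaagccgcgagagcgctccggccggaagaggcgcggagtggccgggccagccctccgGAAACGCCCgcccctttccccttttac
The capitals in Bcl2l11 are a forkhead site, GTAAACA, beginning 227 bases before the start, and those in Mcl1 a kappa-B site read on the other strand, GGGNNTTTC, beginning 27 bases before the start.

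In the whole windows, on either strand, 3.65% of the 32851 promoters of the table held GTAAACA and 4.36% held GGGNNTTTC. The interferon-response core GAAANNGAA was found in 8.56% of all promoters, the gamma-activated site TTCNNNGAA in 8.30% and the AP-1 site TGACTCA in 5.20%, and none of these 3 was found in any window of the 8 genes. Further kappa-B matches lay in the second of 3 windows (in the order of the table) of Bcl2l1 and the first of 3 windows of Bbc3, and a further forkhead match lay in the second window of Bbc3. The windows of Bid, Bcl2, Bax and Bak1 held none of the 5 motifs. These letters describe the sequence and say nothing about binding.

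Among the survival genes, Mcl1, a short-lived guard against BAK and BIM, measured 127, 129, 122 and 127 CPM in BSA (control), 136, 124, 123 and 124 CPM in IL-1β, 153, 152, 154 and 161 CPM in palmitate, and 147, 145, 142 and 155 CPM in palmitate + IL-1β. All 8 libraries with palmitate lay above all 8 without it. Mcl1 rose by 0.29 ± 0.04 (log2 fold change ± SE) with palmitate, adjusted p = 1.1e-06, and by 0.22 ± 0.04 with palmitate + IL-1β, adjusted p = 6.8e-05. With IL-1β alone the difference was 0.00 ± 0.04, adjusted p = 0.98, with a 95% interval from -0.08 to 0.09.

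Bcl2, the founding survival gene, had the lowest level of the 10: its libraries held 4.97, 5.91, 7.10 and 6.40 CPM in BSA (control), 6.42, 6.44, 6.46 and 8.66 CPM in IL-1β, 7.92, 8.76, 7.71 and 9.65 CPM in palmitate, and 8.02, 8.93, 9.71 and 8.55 CPM in palmitate + IL-1β. Both conditions with palmitate lay above BSA (control) without overlap, while IL-1β overlapped with BSA (control), and with the conditions holding palmitate through replicate 8, its highest library. The rise was 0.49 ± 0.11 on the log2 scale with palmitate (adjusted p = 0.00049) and 0.54 ± 0.11 with palmitate + IL-1β (adjusted p = 0.00014). These libraries held 157 to 795 Bcl2 counts, the fewest of any member. With IL-1β alone the log2 difference was 0.20 ± 0.11, adjusted p = 0.26.

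Bcl2l1, which encodes BCL-xL, lay between 30.5 and 36.6 CPM in all 16 libraries. Its mean was highest with palmitate, at 35.5 ± 0.98 CPM, against 33.4 ± 0.27 CPM in BSA (control). IL-1β alone gave a mean of 32.7 ± 1.89 CPM, and palmitate + IL-1β one of 32.2 ± 1.38 CPM (SD, n = 4 each). The 4 palmitate libraries lay above the 4 BSA (control) libraries, but the log2 difference of 0.09, with a 95% interval from -0.01 to 0.19, missed the threshold (adjusted p = 0.16). They also lay above the 4 palmitate + IL-1β libraries, with a log2 difference of -0.14 between palmitate + IL-1β and palmitate and an adjusted p of 0.064, which was below 0.05 under 5 of 14 alternative settings. Palmitate + IL-1β against BSA (control) gave -0.05 (adjusted p = 0.41), and -0.13 with an adjusted p of 0.029 under upper-quartile normalization.

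Where palmitate was present, the log2 fold changes of the pore formers were of a size like those of Mcl1, which were 0.29 with palmitate and 0.22 with both agents. Bak1 measured 28.7, 29.7, 28.5 and 31.3 CPM in BSA (control), 31.9, 30.03, 26.9 and 24.2 CPM in IL-1β, 35.4, 34.6, 34.7 and 36.6 CPM in palmitate, and 32.6, 30.7, 35.4 and 34.5 CPM in palmitate + IL-1β. Palmitate lay above BSA (control) without overlap, and palmitate + IL-1β overlapped with BSA (control). Bak1 rose by 0.26 ± 0.06 with palmitate (adjusted p = 0.0016). With palmitate + IL-1β its log2 fold change of 0.17 ± 0.06 had an adjusted p of 0.026, which rose above 0.05 under 10 of 14 alternative settings.

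Bax, the pore former that moves from the cytosol to the mitochondrion, measured 10.4, 12.0, 10.3 and 9.40 CPM in BSA (control), 11.2, 11.7, 10.6 and 10.1 CPM in IL-1β, 10.4, 12.0, 13.0 and 13.3 CPM in palmitate, and 12.9, 12.6, 14.4 and 12.3 CPM in palmitate + IL-1β. Palmitate + IL-1β lay above BSA (control) without overlap, and palmitate alone overlapped with BSA (control). The rise with both agents was 0.31 ± 0.08 on the log2 scale, adjusted p = 0.0028. With palmitate alone the log2 fold change was 0.21 ± 0.08 with an adjusted p of 0.047, which rose above 0.05 under 12 of 14 alternative settings.

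Among the BH3-only genes, Bid changed most. Its libraries held 33.8, 34.8, 31.9 and 36.6 CPM in BSA (control), 63.5, 59.4, 67.0 and 60.6 CPM in IL-1β, 80.7, 85.2, 84.2 and 82.1 CPM in palmitate, and 100.1, 101.6, 103.6 and 93.2 CPM in palmitate + IL-1β. The 4 conditions did not overlap in any pair, in the order BSA (control), IL-1β, palmitate, palmitate + IL-1β. Bid was 1.83-fold higher with IL-1β (log2 0.87 ± 0.05, adjusted p = 1.2e-14), 2.42-fold higher with palmitate (1.28 ± 0.05, adjusted p = 7.8e-20) and 2.91-fold higher with both (1.54 ± 0.05, adjusted p = 4e-22).

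IL-1β added less to Bid when palmitate was present. The IL-1β effect was 0.87 on the log2 scale without palmitate and 0.26 ± 0.05 with it (adjusted p = 2e-04), and the interaction of the agents was -0.61 ± 0.07, adjusted p = 2.2e-07. Bid was the 1 member of 10 past the threshold for the interaction, against 1.99% of all genes tested, and it stayed past it in 21 of 21 alternative settings. Among all genes tested, 298 had a negative interaction past the threshold and 26 a positive one, so the direction seen for Bid was the common one. On a log2 scale a negative interaction means that the joint fold change was below the product of the single ones. The exons of Bid, on chromosome 6 from 120862525 to 120894171 of GRCm39 on the minus strand, overlap over 3377 bases with genes of the other strand, among them its distant relative Bcl2l13. Counting was by strand, and Bcl2l13 had log2 fold changes of 0.16, 0.10 and 0.15 in the 3 treated conditions, of which that with both agents passed (adjusted p = 0.041).

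Bcl2l11, whose product BIM binds every survival protein of the family, held 41.9, 40.4, 40.4 and 38.8 CPM in BSA (control), 35.7, 37.6, 36.9 and 37.9 CPM in IL-1β, 24.5, 24.3, 24.8 and 24.4 CPM in palmitate, and 23.4, 22.3, 22.6 and 21.6 CPM in palmitate + IL-1β. The 4 conditions again did not overlap, in descending order. Bcl2l11 fell by 0.72 ± 0.05 on the log2 scale with palmitate (adjusted p = 6.2e-14) and by 0.84 ± 0.05 with palmitate + IL-1β (adjusted p = 1.1e-15). The IL-1β difference of -0.12 ± 0.05 against BSA (control) missed the threshold (adjusted p = 0.07), and passed it under upper-quartile normalization and with a filter of 10 counts in every library. Its interaction was 0.00, with a 95% interval from -0.14 to 0.14.

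Pmaip1, whose product NOXA binds MCL1, held 41.9, 40.8, 42.2 and 45.0 CPM in BSA (control), 52.0, 47.8, 52.2 and 47.7 CPM in IL-1β, 29.5, 30.3, 27.5 and 27.9 CPM in palmitate, and 35.8, 34.2, 34.2 and 37.4 CPM in palmitate + IL-1β. IL-1β was highest and palmitate lowest, and no pair of conditions overlapped. Pmaip1 rose by 0.23 ± 0.05 with IL-1β (log2, adjusted p = 0.0012) and fell by 0.56 ± 0.05 with palmitate (adjusted p = 1.9e-10). Added to palmitate, IL-1β raised it by 0.29 ± 0.05 (adjusted p = 0.00019), so that palmitate + IL-1β differed from BSA (control) by -0.26 ± 0.05 (adjusted p = 7.1e-05). The interaction was 0.06, with a 95% interval from -0.09 to 0.21 (adjusted p = 0.86).

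Bbc3, which encodes the p53-induced protein PUMA, held 18.1, 15.5, 17.7 and 17.5 CPM in BSA (control), 16.0, 16.3, 15.4 and 13.8 CPM in IL-1β, 17.1, 18.9, 18.9 and 18.5 CPM in palmitate, and 15.6, 14.7, 13.2 and 16.5 CPM in palmitate + IL-1β. Palmitate lay above IL-1β and above palmitate + IL-1β without overlap, and BSA (control) overlapped with every other condition. Adding IL-1β to palmitate lowered Bbc3, a log2 difference of -0.30 ± 0.07 (adjusted p = 0.0049). Against BSA (control), palmitate + IL-1β was lower by 0.20 ± 0.07 (adjusted p = 0.02), a call lost without BSA (control) replicate 1 or without palmitate + IL-1β replicate 15, where the adjusted p reached 0.11 at the highest. IL-1β alone gave -0.16 ± 0.07 (adjusted p = 0.14).

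Bnip3l, the mitophagy receptor, held 162, 161, 171 and 169 CPM in BSA (control), 164, 168, 166 and 164 CPM in IL-1β, 191, 180.0, 177 and 171 CPM in palmitate, and 183, 185, 178 and 192 CPM in palmitate + IL-1β. Palmitate + IL-1β lay above BSA (control) and IL-1β without overlap. The differences were small: 0.15 ± 0.04 with palmitate + IL-1β (log2, adjusted p = 0.0024, but 0.11 under upper-quartile normalization) and 0.12 ± 0.04 with palmitate (adjusted p = 0.026), the latter above 0.05 under 8 of 14 alternative settings. IL-1β alone gave 0.00 ± 0.04, adjusted p = 0.99.

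**Figure D2:**
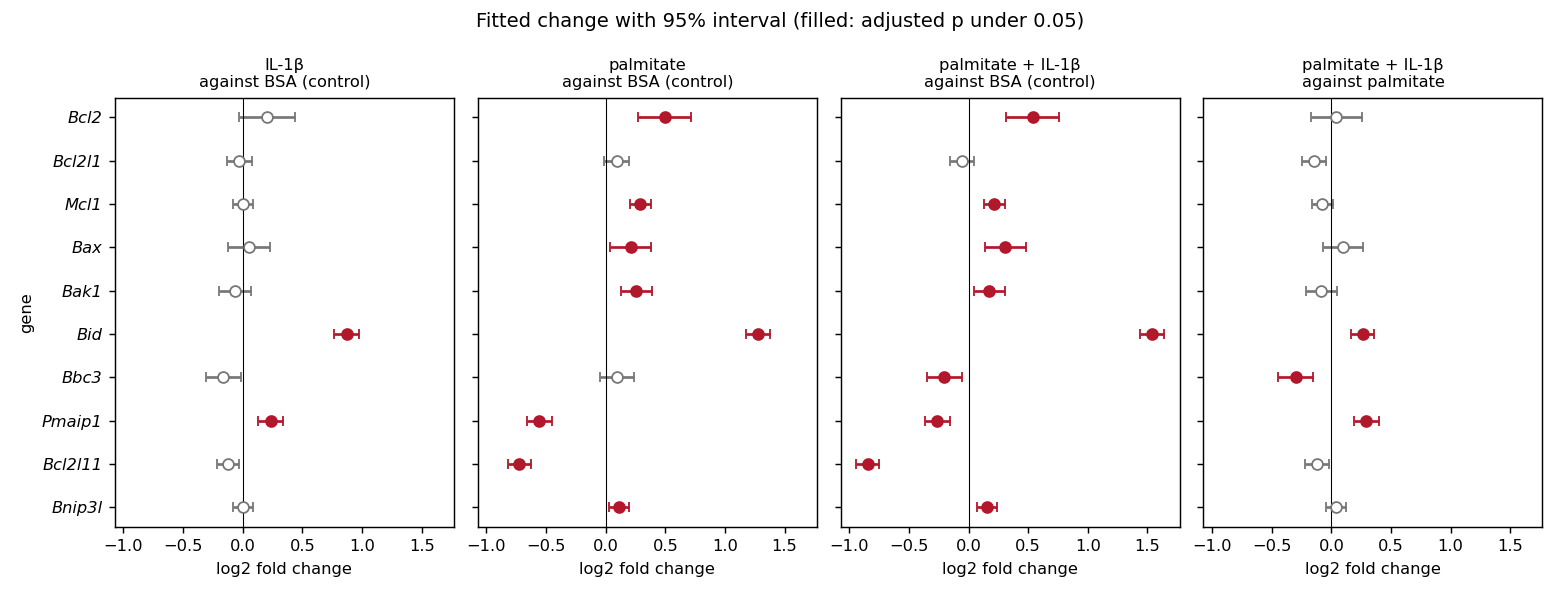
Fitted log2 fold change (x axis) of each of the 10 genes (rows) in 4 comparisons (panels), with its 95% interval. Filled red points have an adjusted p under 0.05. Bid stands apart at 0.87, 1.28 and 1.54 in the first 3 panels, and Bcl2l11 is the lowest at -0.72 and -0.84 with palmitate.

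Counted over the comparisons, IL-1β against BSA (control) called 2 of the 10 genes, both higher, against 15.1% of all genes tested (10.1% higher and 4.97% lower), a share close to that background. Upper-quartile normalization called 4, adding Bbc3 and Bcl2l11 as lower. Palmitate against BSA (control) called 8, of which 6 were higher and 2 lower, against 37.3% of all genes (19.8% higher and 17.5% lower). Palmitate + IL-1β against BSA (control) called 9, of which 6 were higher and 3 lower, against 47.3% (24.8% higher and 22.5% lower). The median log2 fold change of the 10 genes was 0.00, 0.16 and 0.16 in these comparisons, and that of all genes tested was -0.00, -0.00 and 0.00. The 3 comparisons share the BSA (control) libraries. The members were chosen with earlier results of these data known, so their counts beside those of all genes are a description only. With a log2 fold change of at least 0.5 required as well, 1, 3 and 3 members were called, where 3.07%, 13.6% and 19.5% of all genes were called, namely Bid in each, Bcl2l11 in both comparisons with palmitate, Pmaip1 with palmitate alone and Bcl2 with both agents.

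Palmitate + IL-1β against palmitate called 3 members, Bid and Pmaip1 higher and Bbc3 lower, against 9.81% of all genes (5.71% higher and 4.10% lower). Against IL-1β, palmitate + IL-1β called 8, with 6 higher and 2 lower, where 35.0% of all genes were called (18.9% higher and 16.1% lower); the calls of Bcl2 and Bax there were lost under 4 and 3 of 14 alternative settings, each of which left out 1 library. Palmitate against IL-1β called 8 as well, with Bcl2, Mcl1, Bak1, Bid, Bbc3 and Bnip3l higher and Pmaip1 and Bcl2l11 lower, where 31.6% of all genes were called (16.5% higher and 15.2% lower). The calls of Bcl2 (log2 fold change 0.29, adjusted p = 0.04) and Bnip3l (0.12, adjusted p = 0.028) in this last comparison were lost under 7 and 8 of 14 alternative settings. The widest of these last differences was that of Pmaip1, 0.79 ± 0.05 lower on the log2 scale with palmitate (adjusted p = 9.6e-14). The same requirement called 0, 2 and 2 members in these last 3 comparisons, against 1.60%, 12.4% and 10.4% of all genes. Among the 16 libraries, each had its nearest library, by the level of these 10 genes alone, in its own condition. Other sets of 10 genes were not tried, and 50.8% of all genes tested differed across the 4 conditions, so this may not be particular to these genes.

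Divided by exon length, levels can be set side by side between genes. In BSA (control) the order was Mcl1 at 36.2 ± 0.81 CPM per kilobase (mean ± SD, n = 4), Bnip3l at 30.1 ± 0.98, Pmaip1 at 15.6 ± 0.65, Bak1 at 12.3 ± 0.54, Bcl2l1 at 6.51 ± 0.05, Bax at 5.67 ± 0.59, Bcl2l11 at 3.99 ± 0.12, Bbc3 at 3.60 ± 0.24, Bid at 3.50 ± 0.20 and Bcl2 at 0.66 ± 0.10. The neighbours whose libraries overlapped were Bcl2l1 with Bax and Bbc3 with Bid. With palmitate + IL-1β, Bid stood at place 5 with 10.2 ± 0.46 CPM per kilobase, Bak1 and Pmaip1 overlapped at 13.8 ± 0.87 and 13.0 ± 0.56, and Mcl1, Bnip3l and Bcl2 kept the first, second and last place. Dividing by the longest transcript instead put Bid in place 8 in BSA (control) and place 3 with palmitate + IL-1β, at 7.52 and 21.9 CPM per kilobase. By that length Mcl1 and Bnip3l overlapped in every condition but palmitate, with means of 36.2 and 35.9 CPM per kilobase in BSA (control).

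**Figure D3:**
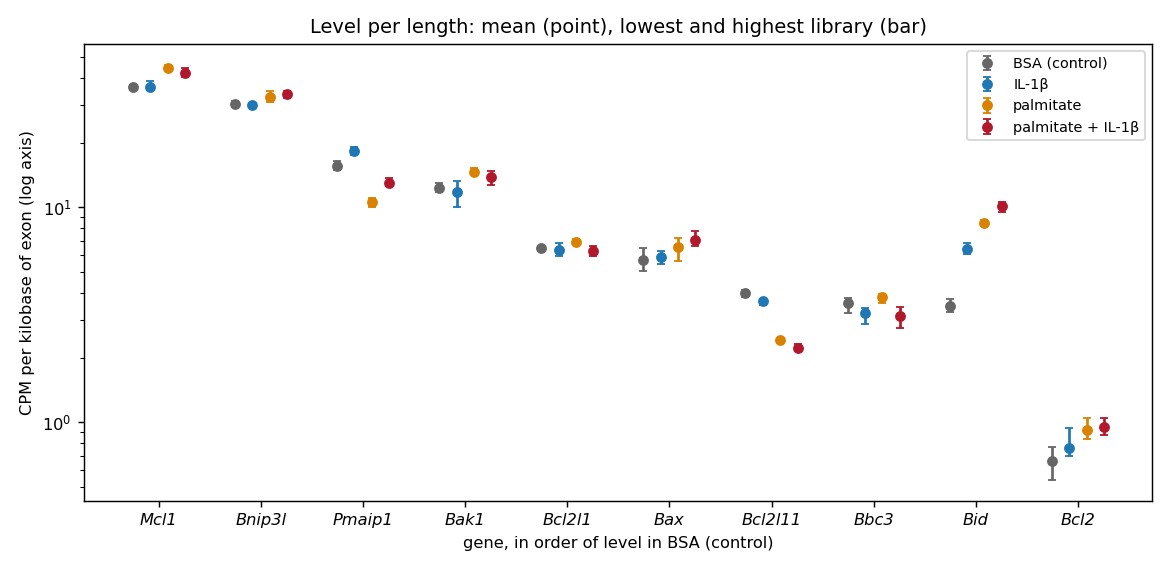
Level per length in CPM per kilobase of exon (y axis, log scale) of the 10 genes, in the order of their level in BSA (control) (x axis). Points are means over 4 libraries and bars run from the lowest to the highest library. Bid moves from 3.50 to 10.2 CPM per kilobase, past Bbc3, Bcl2l11, Bax and Bcl2l1.

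Per length, the 10 genes together summed to 118.1 ± 1.43 CPM per kilobase in BSA (control) and 132.2 ± 2.81 with palmitate + IL-1β. The 3 survival genes made up 36.8% ± 0.64 of that sum in BSA (control), 35.4% ± 0.71 with IL-1β, 39.7% ± 0.78 with palmitate and 37.3% ± 0.52 with both agents (SD, n = 4 each). The 4 BH3-only genes made up 22.6% ± 0.53, 25.7% ± 0.74, 19.2% ± 0.47 and 21.6% ± 0.31 in the same order. With both agents the direction of these shares against BSA (control) turned when levels were divided by the longest transcript: that of the survival genes was then 32.9% ± 0.48 in BSA (control) and 32.2% ± 0.57 with both agents, and that of the BH3-only genes 26.4% ± 0.59 and 27.5% ± 0.50. Within the BH3-only genes the share of Bid went from 13.1% ± 0.66 in BSA (control) to 20.3% ± 0.48 with IL-1β, 33.5% ± 0.60 with palmitate and 35.7% ± 2.02 with both agents. By the longest transcript it was 20.1% ± 0.99, 30.5% ± 0.75, 45.1% ± 0.45 and 48.8% ± 2.2 in the same order.

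Ratios of counts between a death gene and a survival gene whose proteins bind each other do not depend on the scaling of libraries. No pair with Bid or Bbc3 was computed, so the ratios do not cover the BH3-only genes as a group. Bid, the BH3-only gene that changed most, rose from 836 to 1142 counts in BSA (control) to 2530 to 3535 with both agents. Mcl1 held 3208 to 4305 and 4214 to 5172 counts there. Bcl2l11/Mcl1 ranged from 0.3054 to 0.330 in BSA (control), 0.263 to 0.3052 with IL-1β, 0.152 to 0.161 with palmitate and 0.139 to 0.160 with both agents. Pmaip1/Mcl1 ranged from 0.317 to 0.354, 0.383 to 0.424, 0.174 to 0.199 and 0.236 to 0.244 in the same order. Both ratios were below BSA (control) in 4 of 4 libraries of either condition with palmitate, and with IL-1β alone Pmaip1/Mcl1 was above it and Bcl2l11/Mcl1 below it in 4 of 4, the latter by a narrow margin.

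With palmitate, Bcl2l11/Mcl1 was 0.496 times and Pmaip1/Mcl1 0.554 times its BSA (control) value, and with palmitate + IL-1β 0.479 and 0.717 times. Bak1/Bcl2l1 rose above BSA (control) without overlap in both conditions with palmitate, by 1.13-fold and 1.17-fold. In a two-sided exact permutation test of 4 libraries against 4, the smallest p possible is 0.0286. It was reached in 8 of the 15 tests, and the Benjamini-Hochberg adjusted value over the 15 tests was then 0.0536, so no ratio passed the correction in the exact permutation test. Bax/Bcl2 and Bak1/Mcl1 overlapped with BSA (control) in every treated condition, with exact permutation p-values from 0.171 to 0.486.

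**Figure D4:**
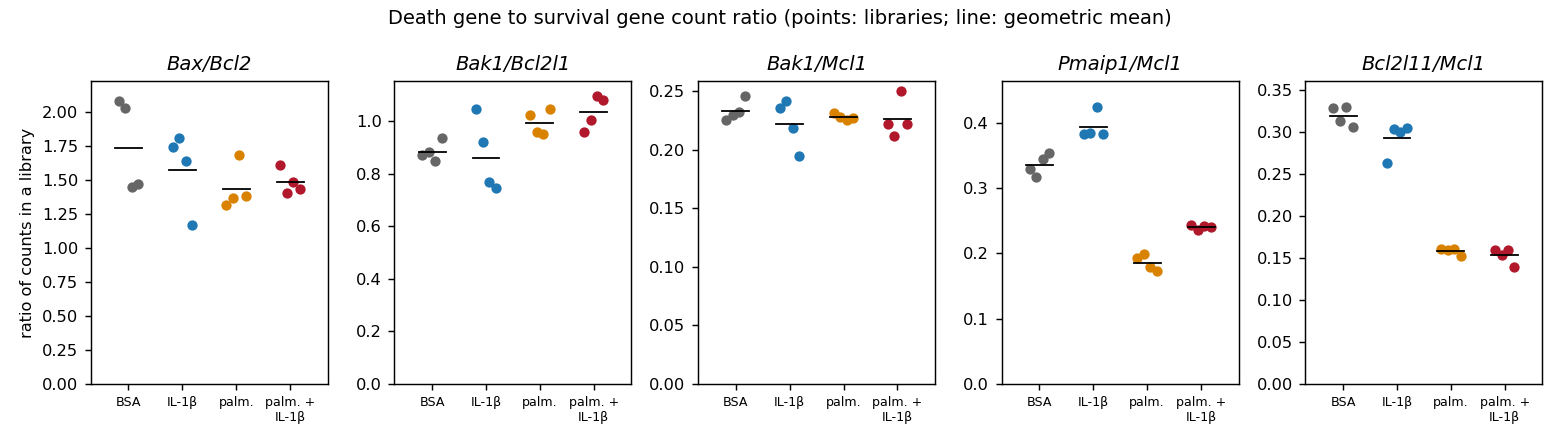
Ratio of the counts of a death gene to those of a survival gene within each library (y axis, from 0) in the 4 conditions (x axis, palm. for palmitate). Points are libraries and lines geometric means. No pair holds Bid or Bbc3. Bcl2l11/Mcl1 and Pmaip1/Mcl1 lie lower in the 8 libraries with palmitate than in the 8 without, and Bax/Bcl2 overlaps throughout.

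Over the 16 libraries, the genes with log2 CPM patterns most like that of Bid were Ets2, a transcription factor (Pearson r = 0.996), Csf1, a macrophage growth factor (0.995), and Cxcl1, a neutrophil chemokine (0.994), among 11826 genes searched. Those most like Bcl2l11 were Vegfd, a lymphatic growth factor (0.995), Plekhg4 (0.993) and Mecom, a transcription factor (0.993), and those most like Pmaip1 were Hsdl2 (0.971), Hycc1 (0.969) and Lonrf1 (0.962). These points share their 4 conditions and their libraries. Cxcl1 went from 14.3 ± 1.10 to 642 ± 34.9 CPM between BSA (control) and palmitate + IL-1β, a far wider range than that of Bid.

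Of 15 other BCL2 family genes, 7 had enough counts to be tested. The survival genes Bcl2a1a and Bcl2a1b were at 0 counts in all 16 libraries, and Bcl2a1d, Bcl2l10, Bik, Hrk, Bcl2l14 and Bcl2l15 reached at most 6 counts in any library. Sequence shared with other genes was searched for the members only, so reads that fit several Bcl2a1 genes may be missing from these counts. With palmitate + IL-1β all 7 passed, 3 higher and 4 lower, where 47.3% of all genes passed. Bmf, a BH3-only gene tied to the cytoskeleton, fell by 1.02 on the log2 scale (adjusted p = 4e-10), from 18.5 to 9.16 CPM, and Bok, a further pore former, fell by 0.98 (adjusted p = 7e-10), from 10.1 to 5.11 CPM. Bnip3, the hypoxia-induced relative of Bnip3l, rose by 0.54 (adjusted p = 2.1e-11), from 55.7 to 80.9 CPM. The survival gene Bcl2l2 rose by 0.23, Bcl2l13 by 0.15, Bad fell by 0.27 and Bcl2l12 fell by 0.46. With palmitate alone 1 was higher and 2 lower, where 37.3% of all genes passed, and with IL-1β alone 1 was higher and 1 lower, where 15.1% of all genes passed.

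Upstream and downstream of the family, 5 further lists were counted with palmitate + IL-1β against BSA (control), where 24.8% of all genes tested were higher and 22.5% lower. These lists too were chosen with earlier results of these data known. Of 8 death receptor genes, which feed into BID cleavage through caspase-8, 5 were higher and 0 lower with edgeR, with a median log2 fold change of 0.29 beside 0.00 for all genes tested. Fas, a death receptor, was higher by 1.82 (adjusted p = 1.1e-21) and Cflar, an inhibitor of caspase-8, by 1.03 (adjusted p = 3.6e-18). Casp8 itself was higher by 0.45 (adjusted p = 8.2e-09) and Tnfrsf10b by 0.35 (adjusted p = 1.3e-08). Fas, like Bid, had a negative interaction, of -0.82, adjusted p = 3.1e-08. The negative sign is not particular to the 2 genes: among all genes tested, 298 interactions past the threshold were negative and 26 positive. An interaction past the threshold was itself uncommon, called for 1.99% of all 16306 genes tested. Negative ones were called for 2 of the 8 genes of this list, Fas included, and for 4 of the 14 of the p53 list below. They were also called for 1 of the 17 apoptosome and caspase genes and 1 of the 9 stress regulators below.

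Of 17 genes of the apoptosome and the caspases, 7 were higher and 3 lower, against 24.8% and 22.5% of all genes, with a median of 0.13. Birc3, an inhibitor of apoptosis induced by NF-kB, rose by 1.84 on the log2 scale (adjusted p = 3.5e-23), Casp9, the initiator activated by cytochrome c, fell by 0.61 (adjusted p = 2.5e-08), and Htra2 and Cycs, proteins released from mitochondria, rose by 0.51 (adjusted p = 1.1e-05) and 0.48 (adjusted p = 0.0085).

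Of 14 genes of p53 and its targets, 7 were higher and 4 lower, against 24.8% and 22.5% of all genes (the same shares hold for the lists that follow), with a median of 0.14. Plk2 rose by 2.34 (adjusted p = 1.5e-28), Trp53 by 0.69 (adjusted p = 1.2e-14), Aen by 0.68 (adjusted p = 4.3e-13) and Perp fell by 0.62 (adjusted p = 6e-11), while Bbc3 and Pmaip1, which p53 is also known to induce, were lower by 0.20 and 0.26. Of 9 stress regulators of BH3-only genes, 5 were higher and 1 lower, with a median of 0.15. Foxo3, a known activator of Bcl2l11, rose by 1.03 (adjusted p = 3.6e-18) in the condition in which Bcl2l11 fell by 0.84. A link of Foxo3 to Bcl2l11 in these cells, or of Trp53 to Bbc3 and Pmaip1, was not tested. Jun rose by 0.76 (adjusted p = 1.2e-15), Hif1a, which induces Bnip3 and Bnip3l, rose by 0.63 (adjusted p = 1.3e-11), and E2f1 fell by 0.24 (adjusted p = 0.0022). Of 3 outer membrane channels of the VDAC family, 0 were higher and 1, Vdac1, was lower, by 0.13 (edgeR adjusted p = 0.011).

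**Figure D5:**
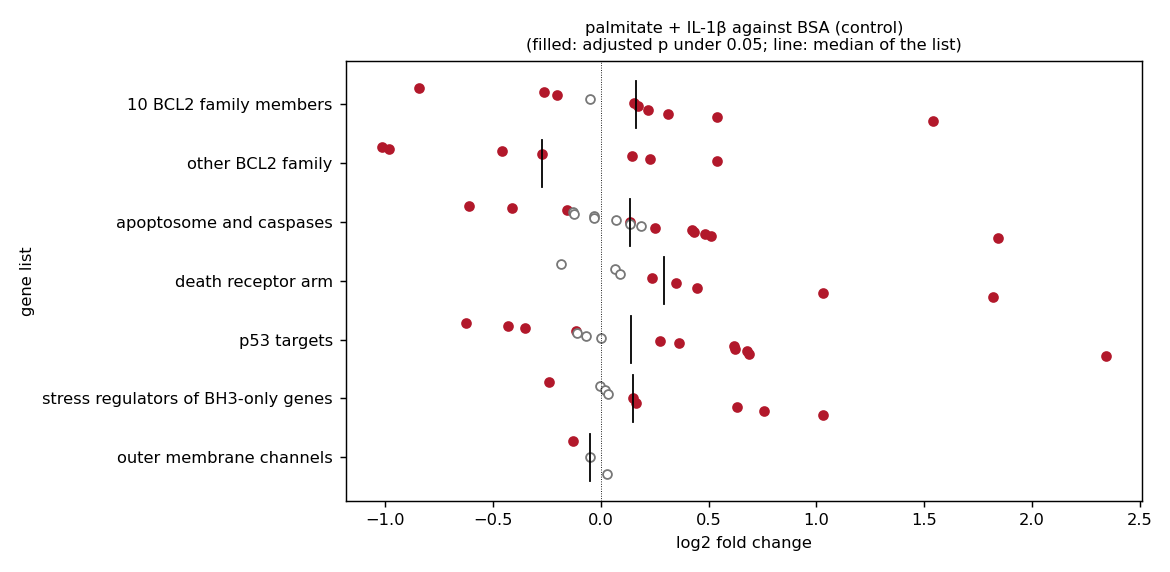
Log2 fold change of palmitate + IL-1β against BSA (control) (x axis) for the tested genes of the 10 BCL2 family members and 6 further lists (rows). Each point is a gene, filled where the adjusted p is under 0.05, and the black line is the median of the list, 0.16 for the 10 members and 0.29 for the death receptor arm.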

How the data were processed

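Reads of 16 libraries were trimmed by the authors (Trimmomatic 0.39), placed on GRCm39 (STAR 2.7.10a) and counted per gene by strand (HTSeq 2.0.9). The deposited table holds these raw counts. Oligo(dT) priming is described in the study's methods and a stranded kit for total RNA in the labels. The 5 summary rows that name no gene made up 18.3% to 21.4% of each library and stayed out of library sizes and tests. All columns were matched to conditions through the labels.

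The counts were tested with edgeR 4.0.16 (R 4.3.3): filterByExpr (minimum count 10, minimum total count 15), TMM, glmQLFit with robust estimation and glmQLFTest, with all 16 libraries in the same model and 1 mean for each condition. Values of p were adjusted by Benjamini-Hochberg over the 16306 genes tested. Likeness used log2 CPM (prior count 2) of genes with an average log2 CPM of at least 1. Ratios were compared by a two-sided exact permutation test. The code was tested on simulated data.

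Named were all 10 members, all other BCL2 family genes, and from each further list up to 4 genes with the largest change past the threshold in palmitate + IL-1β against BSA (control) with an average log2 CPM of at least 1. Of the further lists, a gene is not reported here. The members and lists were chosen with earlier results of these data known. Gene positions are those of GENCODE vM39 on GRCm39 and promoters those of RefSeq on GRCm38.p6. Alternatives were DESeq2 1.42.0, upper-quartile normalization, other filters, leaving out genes of mitochondrial and ribosomal RNA, a model of the compared libraries alone, a minimum log2 fold change of 0.5, leaving out each library, 1 added to both counts of a ratio, and length by the longest transcript.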

Additional observations from a re-analysis of the deposited data

Results flagged for a closer look

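Among the 40 groups of 4 libraries (10 genes in 4 conditions), 2 held a library far from the others, the number that chance would give by a test flagging about 1 group in 20. Bcl2 was at 8.66 CPM in IL-1β replicate 8, beside 6.42 to 6.46 CPM in the other 3 libraries of that condition. Mcl1 was at 136 CPM in IL-1β replicate 5, beside 123 to 124 CPM in the others.

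The effect of IL-1β on Bid differed with and without palmitate, with an interaction of -0.61 on the log2 scale (edgeR's quasi-likelihood test, adjusted p = 2.2e-07).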

How the results depend on the processing

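Requiring a log2 fold change of at least 0.5 left 1 member called for IL-1β, 3 for palmitate and 3 for palmitate + IL-1β, each against BSA (control), 0 for palmitate + IL-1β against palmitate, 2 for palmitate + IL-1β against IL-1β and 2 for palmitate against IL-1β, where 3.07%, 13.6%, 19.5%, 1.60%, 12.4% and 10.4% of all genes were called. Upper-quartile normalization called 4 for IL-1β against BSA (control) and moved the median of all genes by -0.05 to -0.08 in the comparisons with BSA (control). Leaving out 1 library at a time gave 2 to 2 calls for IL-1β, 6 to 7 for palmitate and 7 to 9 for palmitate + IL-1β, 3 to 4 for palmitate + IL-1β against palmitate, and 6 to 8 for the other comparisons of conditions.

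Signs changed only for values that were not called. For Mcl1 with IL-1β they were -0.0437 under upper-quartile normalization, -0.0101 with no expression filter and -0.0106 with at least 10 counts in every library. The interaction was 0.0170 for Bak1 under upper-quartile normalization, and for Bcl2l11 -0.0034 with no filter, -0.0017 without mitochondrial and ribosomal RNA genes and -6.3e-05 with DESeq2. Leaving out 1 library at a time gave log2 ranges with IL-1β against BSA (control) of -0.0686 to 0.00252 for Bcl2l1, -0.0310 to 0.0164 for Mcl1, -0.126 to 0.000906 for Bak1, -0.0214 to 0.0149 for Bnip3l and -0.132 to 0.0328 for the ratio Bak1/Bcl2l1. They were -0.00776 to 0.0986 for Bcl2 with palmitate + IL-1β against palmitate, -0.0587 to 0.00490 for Bcl2l1 and -0.0854 to 0.0189 for Bbc3 with palmitate + IL-1β against IL-1β. For the interaction they were -0.0238 to 0.0974 for Bax, -0.0842 to 0.0426 for Bak1 and -0.0197 to 0.0220 for Bcl2l11.

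No paired analysis was possible because the conditions share no replicate number. Without palmitate replicate 10, the deepest library, the calls lost were those of Bax and Bnip3l against BSA (control) and of Bcl2 and Bnip3l against IL-1β. Adding 1 to both counts of a ratio moved no ratio by more than the spread between libraries. The order of libraries follows the conditions and cannot be told apart from them. Bcl2, with 157 to 795 counts a library, has the widest error of the 10 genes.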

Other observations

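Some members share sequence of at least 95% identity over at least 100 bases with other annotated transcripts, on either strand. The share of the longest transcript was 32.7% for Bid, 24.4% for Bnip3l, 22.5% for Bak1, 17.6% for Bax, 13.6% for Bcl2l1 and 6.87% for Bcl2, and no such match was found for Mcl1, Pmaip1, Bbc3 and Bcl2l11. The pseudogene Bnip3l-ps held 31 to 163 counts, where Bnip3l held 3922 to 16334, and Gm6308, which resembles Bid, held 0 to 13 counts.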
